A study of Rattus norvegicus with 24 samples.

Results

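Nppa and Nppb are the genes of the cardiac natriuretic peptides, and their transcript levels were followed across rat hearts with an infarct, with or without a patch, and sham-operated hearts. They were taken as the rows ENSRNOG00000008176 (Nppa) and ENSRNOG00000008141 (Nppb) of the deposited count table, 2 of its 32883 gene IDs, and both were counted in all 24 libraries. The table carries no gene symbols, so that the pairing of these IDs with their names was given with the question and no other row is named here.

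Nppa encodes the precursor of atrial natriuretic peptide, and Nppb that of brain natriuretic peptide, named after the tissue it was first found in. Both hormones are released by stretched heart muscle cells and act through a receptor guanylyl cyclase that makes cyclic GMP, which relaxes vessels and promotes loss of salt and water by the kidney. In the healthy adult heart Nppa is mainly a gene of the atria; ventricular muscle expresses it before birth and again under load or after injury, which makes it a common marker of the fetal gene program. Nppb is expressed in atria and ventricles, and its product is measured in blood as a marker of heart failure.

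RNA came from left ventricles of rats of the outbred Sprague Dawley strain, in 4 groups of 6 libraries. The groups were Microneedle patch, an infarct with a patch that anchors itself in the tissue by interlocking microneedles; Sutured patch, an infarct with a patch held by stitches; MI, a myocardial infarct without a patch; and Sham, operated hearts that serve as controls. The labels place sampling in the infarct region 7 days after infarction and patch implantation; they do not say how the infarct was made, which part of the Sham ventricle was taken, or whether each library came from its own rat, so that p-values measure the spread between libraries. All 3 groups other than Sham share the infarct, and a patch was never tested without one. Total counts ran from 13590783 to 14552623 with the microneedle patch, from 12574300 to 14437712 with the sutured patch, from 12864218 to 13974505 in MI and from 5443782 to 11757562 in Sham, where every library was shallower than those of the other groups. Because the IDs carry no symbols, the labelled tissue could not be checked against muscle markers, and the planned lists of receptors, processing enzymes and other cell types could not be tested. In such bulk tissue, fewer muscle cells and less transcript per muscle cell cannot be told apart.

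In the RefSeq gene order of the rat assembly GRCr8, Nppb and Nppa stand next to each other on chromosome 5, with Clcn6 beyond Nppa and 2510039O18Rikl beyond Nppb. Their upstream sequences are shown because the levels of these neighbours moved together among infarct hearts but apart between infarct and Sham hearts, as described below. Each run is the 250 bases before the annotated start, 5′ to 3′ on the + strand of GRCr8 as given by RefSeq, at chr5:163711934-163712183 for Nppa and chr5:163699758-163700007 for Nppb. Capitals mark matches to the motifs searched.
Nppa: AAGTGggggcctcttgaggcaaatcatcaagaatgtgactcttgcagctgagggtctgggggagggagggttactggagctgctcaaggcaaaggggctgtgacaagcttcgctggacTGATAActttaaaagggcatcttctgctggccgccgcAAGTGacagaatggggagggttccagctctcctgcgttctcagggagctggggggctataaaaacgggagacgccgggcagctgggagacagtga
Nppb: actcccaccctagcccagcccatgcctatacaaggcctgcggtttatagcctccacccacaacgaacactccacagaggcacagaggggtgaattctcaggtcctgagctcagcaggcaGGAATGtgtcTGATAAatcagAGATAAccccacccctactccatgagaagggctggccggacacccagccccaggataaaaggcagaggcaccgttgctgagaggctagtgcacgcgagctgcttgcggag

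The motifs searched on both strands, over these bases and the 50 that follow, belong to factors known from work in rodents to act on these genes. They were AGATAA and TGATAA for the GATA family of heart transcription factors, CATTCC for the TEAD factors that bind M-CAT elements, AAGTG for NKX2-5, TGANTCA for AP-1, GGTGTGA for T-box factors, and the CArG box and MEF2 motifs. Upstream of Nppa, TGATAA stood at -132 to -127 from the start, and AAGTG stood at -250 to -246 and at -95 to -91. Upstream of Nppb, TGATAA stood at -121 to -116, AGATAA at -110 to -105, and CATTCC on the opposite strand, printed as its reverse complement, at -131 to -126. Nppb also had AAGTG on the opposite strand at 46 to 50 after the start, outside the printed run. None of these matches overlapped another, and the AP-1, T-box, CArG and MEF2 motifs had 0 matches in these windows. Among the 33469 rat promoters of the same length, 9.03% held TGATAA, 11.6% AGATAA, 14.2% CATTCC and 46.2% AAGTG. The AP-1 motif was held by 7.33%, the T-box motif by 3.83%, the CArG box by 1.64% and the MEF2 motif by 3.29%. For these 0 matches is thus the usual result, and variants of the motifs were not searched. These are matches of letters and not measured binding sites.

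Nppa was far more abundant in infarct tissue than in Sham tissue, whereas Nppb was not. Nppa ranged from 576 to 2885 CPM (read counts scaled by the size of the library) in the 6 MI libraries, with a median of 1988 CPM, and from 69.1 to 387 CPM in the 6 Sham libraries, with a median of 174 CPM. Every MI library stood above every Sham library. The mean was 1847 ± 962 CPM in MI and 205 ± 130 CPM in Sham (SD, n = 6 each), a log2 fold change of 3.17 (SE 0.56, 95% interval 2.02 to 4.32). It passed edgeR's quasi-likelihood test with Benjamini-Hochberg adjustment over 14540 genes (adjusted p = 6.17e-05), the source of all single-gene adjusted p-values here unless another tool is named. Nppa thereby took 0.185% ± 0.096 of all counts in MI and 0.0199% ± 0.0122 in Sham, and by count it was between the 17th and the 190th most abundant gene of the MI libraries and between the 430th and the 3050th of the Sham libraries.

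Nppb ranged from 92.5 to 261 CPM in MI, with a median of 187 CPM, and from 79.2 to 368 CPM in Sham, with a median of 173 CPM. The MI values all lay within the Sham range. Its mean was 172 ± 62.8 CPM in MI and 191 ± 106 CPM in Sham, and the log2 fold change was -0.15 (SE 0.42, adjusted p = 0.792). The 95% interval ran from -1.01 to 0.71. The sign of this difference rested on 1 library, since without Sham replicate 4, the Sham library with the highest Nppb, it was 0.14 (adjusted p = 0.807). Thus 1 of the 2 genes was called in this comparison, where 44.7% of all genes were called in either direction and 21.6% of all genes were called higher in MI; MI and Sham libraries were fully apart with MI higher for Nppa and for 14.8% of all genes. Only 2.52% of the genes tested had a larger log2 fold change than Nppa.

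**Figure D1:**
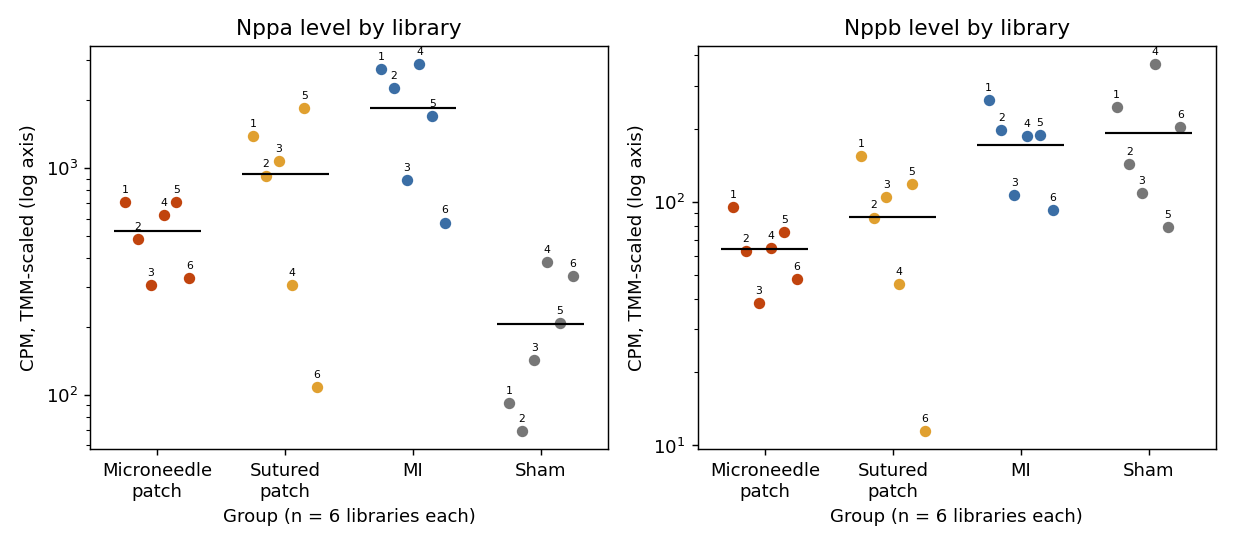
Levels of Nppa (left) and Nppb (right) in each library as CPM on log axes; points are libraries labelled with their replicate number and horizontal lines are group means (n = 6). For Nppa all MI points lie above all Sham points, for Nppb MI and Sham overlap, and both genes are lower with the microneedle patch (means of 527 and 64.2 CPM) than in MI (means of 1847 and 172 CPM).

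The count ratio of Nppa to Nppb within a library removes the scaling between libraries, and its change between groups does not depend on the lengths of the transcripts. It was 10.5, 11.5, 8.39, 15.5, 9.05 and 6.23 in MI replicates 1 to 6, and 0.377, 0.483, 1.31, 1.05, 2.61 and 1.64 in Sham replicates 1 to 6. All MI libraries therefore had more Nppa than Nppb reads, while Sham replicates 1 and 2 had fewer and the shallowest library, Sham replicate 5, had the highest Sham ratio. The mean log2 ratio was 3.29 ± 0.44 in MI and 0.017 ± 1.06 in Sham (SD, n = 6 each), a difference of 3.28. With 6 of 6 MI libraries above all Sham libraries, the exact two-sided permutation test gave p = 0.00216, the smallest that splits of 6 against 6 libraries can give, and 0.00433 after Benjamini-Hochberg adjustment over the 6 comparisons of the ratio. The change in Nppa between MI and Sham was thus larger than that in Nppb by this direct test.

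The ratio was also high in the infarct groups with a patch. It ranged from 6.77 to 9.62 with the microneedle patch, with a median of 7.84, and from 6.64 to 15.6 with the sutured patch, with a median of 9.83. The mean log2 ratio was 3.02 ± 0.20 with the microneedle patch (SD, n = 6) and 3.31 ± 0.40 with the sutured patch (SD, n = 6). Against Sham these were differences of 2.998 for the microneedle and 3.30 for the sutured patch, each with 6 of 6 libraries above all Sham libraries and an exact permutation p of 0.00216 (adjusted 0.00433). These comparisons share the Sham libraries with that of MI. Between the infarct groups no difference in the log2 ratio passed the test. It was -0.28 for the microneedle patch against MI (exact permutation p = 0.195, adjusted 0.234), 0.020 for the sutured patch against MI (exact permutation p = 0.916, adjusted 0.916) and -0.30 for the microneedle against the sutured patch (exact p = 0.132, adjusted 0.198). The last of these passed the threshold without Sutured patch replicate 4, at -0.41 (adjusted p = 0.0325 by the exact permutation test).

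**Figure D2:**
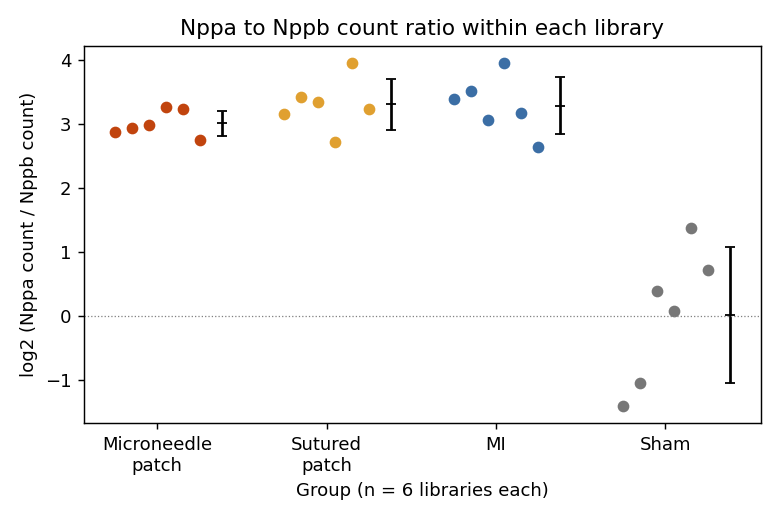
Log2 ratio of Nppa to Nppb counts in each library; points are libraries in the order of replicate numbers and bars at the right of each group give the mean and SD (n = 6). The 18 libraries with an infarct lie between 2.64 and 3.96, and the 6 Sham libraries between -1.41 and 1.38.

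With the microneedle patch both natriuretic peptide genes were lower than in infarcts without a patch. Nppa ranged from 306 to 711 CPM with the microneedle patch, with a median of 554 CPM, against 576 to 2885 CPM in MI. The 3 lowest microneedle libraries, replicates 2, 3 and 6, were below every MI library, and the other 3 overlapped only with MI replicate 6. The mean was 527 ± 182 CPM with the microneedle patch and 1847 ± 962 CPM in MI (SD, n = 6 each), 3.51-fold lower with the patch (log2 fold change -1.81, SE 0.53, adjusted p = 0.0251). Nppb ranged from 38.4 to 95.7 CPM with the microneedle patch, with a median of 63.7 CPM, against 92.5 to 261 CPM in MI. Here 5 of 6 microneedle libraries were below every MI library, and replicate 1 was slightly above the lowest MI library. The mean was 64.2 ± 20.2 CPM with the microneedle patch and 172 ± 62.8 CPM in MI, 2.68-fold lower with the patch (log2 fold change -1.42, SE 0.43, adjusted p = 0.0286). Both genes were thus called lower, where 7.41% of all genes were called lower and 14.5% in either direction.

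These adjusted p-values stood close to the threshold of 0.05, and single libraries moved them across it. For Nppa the call was lost without MI replicate 1 (log2 fold change -1.66, adjusted p = 0.0655) or MI replicate 4 (-1.62, 0.0593), both among the highest of that group. It was also lost without microneedle patch replicate 2 (-1.76, 0.0574), replicate 3 (-1.68, 0.0528) or replicate 6 (-1.69, 0.0651). For Nppb it was lost without MI replicate 1 (-1.27, 0.0799), replicate 2 (-1.36, 0.0531), replicate 4 (-1.39, 0.0520) or replicate 5 (-1.38, 0.0512). It was lost as well without microneedle patch replicate 2 (-1.39, 0.0620), replicate 3 (-1.30, 0.0599) or replicate 6 (-1.34, 0.0703). The direction was the same in all of the 24 leave-one-out fits for either gene. Under the 7 other settings given below, both calls held. The adjusted p by edgeR was lowest with the 2 groups alone, at 0.00385 for Nppa and 0.00202 for Nppb. It was highest without a filter on low counts, at 0.0440 for Nppa and 0.0465 for Nppb. The 3369 genes with a called fall in MI against Sham, a set chosen in these libraries and without names, held 17.2% ± 1.32 of counts with the microneedle patch, 20.3% ± 1.55 with the sutured patch, 20.5% ± 2.77 in MI and 48.0% ± 1.01 in Sham (SD, n = 6 each). That this share was lower in MI than in Sham follows from how the set was chosen. The part of such shifts in the values of Nppa and Nppb was not tested.

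With the sutured patch the means were lower than in MI, but neither gene passed the test. Nppa ranged from 108 to 1851 CPM with the sutured patch, with a median of 1001 CPM. Replicates 4 and 6 of this group, at 304 and 108 CPM, lay below every MI library, while the other 4, up to 1851 CPM in replicate 5, lay within the MI range. The mean was 943 ± 655 CPM with the sutured patch and 1847 ± 962 CPM in MI (SD, n = 6 each), with a log2 fold change of -0.97 (SE 0.52, 95% interval -2.04 to 0.096, adjusted p = 0.299). Nppb ranged from 11.5 to 155 CPM with the sutured patch, with a median of 95.6 CPM. Its 3 libraries below every MI library were replicates 2, 4 and 6, and replicate 6 held the lowest value of all 24 libraries. The mean was 87.0 ± 51.6 CPM with the sutured patch and 172 ± 62.8 CPM in MI, with a log2 fold change of -0.98 (SE 0.42, 95% interval -1.85 to -0.11, adjusted p = 0.191). In this comparison 4.55% of all genes were called, and 0 of the 2 natriuretic peptide genes; the unadjusted p was 0.0727 for Nppa and 0.0282 for Nppb, and DESeq2 called neither (adjusted p = 0.227 for Nppa and 0.128 for Nppb).

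Whether fixation by microneedles or by sutures mattered was tested directly between the patch groups, and no difference was called for either gene. Nppa averaged 527 ± 182 CPM with the microneedle patch and 943 ± 655 CPM with the sutured patch (log2 fold change -0.84, SE 0.52, 95% interval -1.90 to 0.22, adjusted p = 0.496). Nppb averaged 64.2 ± 20.2 CPM with the microneedle patch and 87.0 ± 51.6 CPM with the sutured patch (log2 fold change -0.44, SE 0.42, 95% interval -1.30 to 0.43, adjusted p = 0.694). All 6 microneedle libraries lay within the range of the sutured libraries for both genes. The intervals leave room for a fall of more than 2-fold with the microneedle patch and for a small rise. Of all genes 0.316% were called in this comparison, the unadjusted p was 0.117 for Nppa and 0.307 for Nppb, and DESeq2 called neither. That the microneedle patch passed the test against MI and the sutured patch did not therefore does not show a difference between the patches.

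Against Sham, the patch groups had higher Nppa and lower Nppb. Nppa was 2.57-fold higher with the microneedle patch (log2 fold change 1.36, SE 0.52, adjusted p = 0.0321) and 4.59-fold higher with the sutured patch (log2 fold change 2.20, SE 0.54, adjusted p = 0.00151). In each patch group 4 of 6 libraries were above every Sham library. Nppb was 2.98-fold lower with the microneedle patch (log2 fold change -1.57, SE 0.43, adjusted p = 0.00336), with 5 of 6 libraries below every Sham library. It was 2.20-fold lower with the sutured patch (log2 fold change -1.14, SE 0.42, adjusted p = 0.0296), with 2 of 6 libraries below every Sham library. Of all genes, 25.9% were called higher and 25.7% lower with the microneedle patch against Sham, and 24.1% higher and 23.8% lower with the sutured patch. These comparisons share the Sham libraries, and those with the patches and MI share the MI libraries, so that they are not independent of each other.

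**Figure D3:**
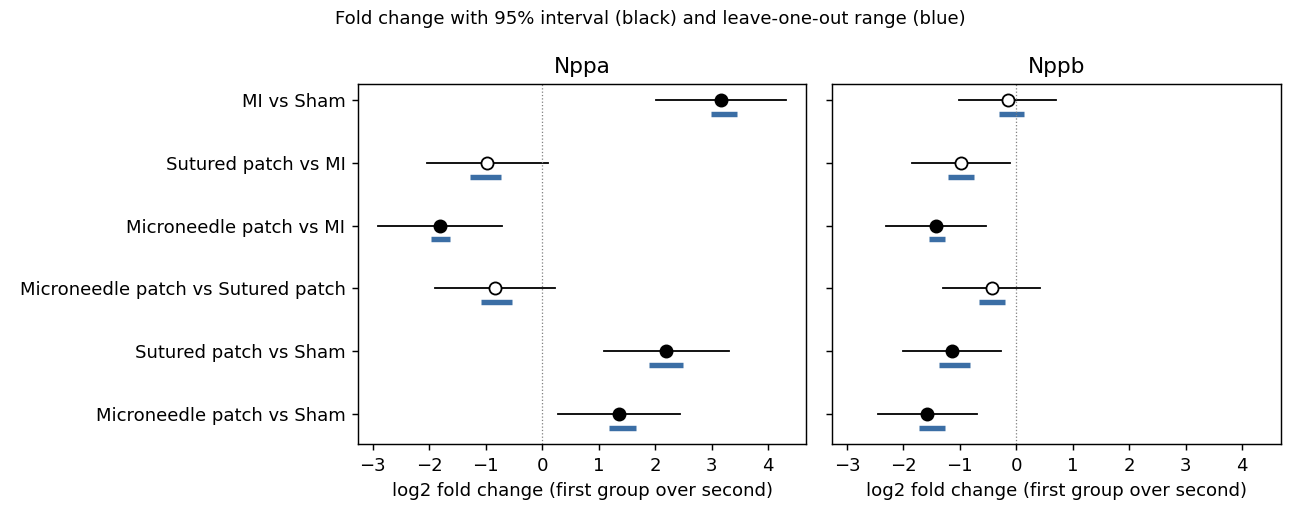
Log2 fold changes of Nppa (left) and Nppb (right) in the 6 comparisons, the first-named group over the second, from the fit over all libraries. Filled circles passed the test at an adjusted p below 0.05, open circles did not, black lines are 95% intervals and blue lines span the 24 fits that each leave out 1 library. Nppa is above 0 in every comparison with Sham, whereas Nppb is below 0 with either patch and at -0.15 for MI.

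The values against Sham also differed in how firmly they held. The rise of Nppa with the microneedle patch lost its call without Sham replicate 1 (log2 fold change 1.21, adjusted p = 0.0696), replicate 2 (1.18, 0.0707) or replicate 3 (1.27, 0.0616), which are the 3 lowest Sham libraries for Nppa. The same held without microneedle patch replicate 1 (1.28, 0.0560) or replicate 5 (1.26, 0.0597), without a filter on low counts (1.37, 0.0516), and with the replicate number as a block (1.21, 0.0678). The fall of Nppb with the sutured patch lost its call without Sham replicate 1 (-1.05, 0.0552) or replicate 4 (-0.82, 0.110) and without sutured patch replicate 4 (-1.003, 0.0689). The fall of Nppb with the microneedle patch and the rise of Nppa with the sutured patch against Sham kept their calls in all 24 leave-one-out fits, as did the rise of Nppa in MI. In order of mean level, Nppa thus stood highest in MI, then with the sutured patch, then with the microneedle patch, and lowest in Sham, and only the neighbours MI and Sutured patch, and Sutured patch and Microneedle patch, did not differ by the test. For Nppb the order was Sham, MI, Sutured patch and Microneedle patch, from high to low, and no pair of neighbours differed by the test.

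Nppa and Nppb went up and down together from library to library within the infarct groups. In MI, replicates 3 and 6 were the lowest for both genes; with the sutured patch replicates 4 and 6 were; and with the microneedle patch replicates 3 and 6 were. Over the 18 infarct libraries Nppa spanned 26.7-fold (108 to 2885 CPM) and Nppb 22.8-fold (11.5 to 261 CPM), but their count ratio only 2.50-fold (6.23 to 15.6). Sutured patch replicate 6 was the low end for both genes, but not for the ratio. The next lowest values were 304 CPM for Nppa, in sutured patch replicate 4, and 38.4 CPM for Nppb, in microneedle patch replicate 3. Pearson's r of the log2 CPM values was 0.93 with the microneedle patch (exact permutation p = 0.00556, adjusted 0.0222 over the 4 groups), 0.97 with the sutured patch (exact permutation p = 0.0111, adjusted 0.0222) and 0.94 in MI (exact permutation p = 0.0278, adjusted 0.0370), with n = 6 in each. Spearman's rho was 0.94 with the microneedle patch (exact permutation p = 0.0167), 0.94 with the sutured patch (exact permutation p = 0.0167) and 0.66 in MI (exact permutation p = 0.175). In Sham r was 0.32 (exact permutation p = 0.525) and rho 0.31 (exact permutation p = 0.564); whether Sham differs from the infarct groups in this was not tested.

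Taken as deviations from the group means over all 24 libraries, r was 0.82 and rho 0.78 (two-sided p = 0.00023 and p = 0.00020, from a permutation test with 100000 draws within groups). Without the libraries farthest from the median for Nppb, Sutured patch replicate 6 and Sham replicate 5, r was 0.81. Values of 1 library share its depth and scaling. By the same deviations, among the 9914 genes with a mean of at least 10 CPM, the gene most like Nppa was Nppb, its neighbour in the genome. The reverse did not hold, as Nppa was only the 61st closest gene to Nppb. After Nppb, the closest ID to Nppa was ENSRNOG00000006146 (r = 0.79), and the closest to Nppb was ENSRNOG00000018598 (r = 0.96); these r are descriptions over 24 libraries, and the IDs were picked for them. Between the groups ENSRNOG00000006146 had the order of Nppa among the infarct groups but not against Sham. It averaged 11.95 ± 3.09 CPM with the microneedle patch, 29.0 ± 20.6 with the sutured patch, 62.9 ± 23.1 in MI and 172 ± 45.7 in Sham (SD, n = 6 each). Like Nppa, it was lower with the microneedle patch than in MI (log2 fold change -2.39, SE 0.41, adjusted p = 0.000841). It was also lower in MI than in Sham (log2 fold change -1.45, SE 0.39, adjusted p = 0.00398), where Nppa was higher. ENSRNOG00000006146 was in fact closer to Nppb (r = 0.91) than to Nppa. ENSRNOG00000018598 averaged 476 ± 156 CPM with the microneedle patch, 872 ± 637 with the sutured patch, 1480 ± 441 in MI and 1508 ± 1002 in Sham (SD, n = 6 each). The second closest ID to Nppb, ENSRNOG00000014327 (r = 0.91), averaged 66.6 ± 23.6 CPM with the microneedle patch and 95.3 ± 50.6 with the sutured patch. Its mean was 209 ± 115 in MI and 294 ± 116 in Sham (SD, n = 6 each). Each of these IDs had the same order of groups as Nppb.

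**Figure D4:**
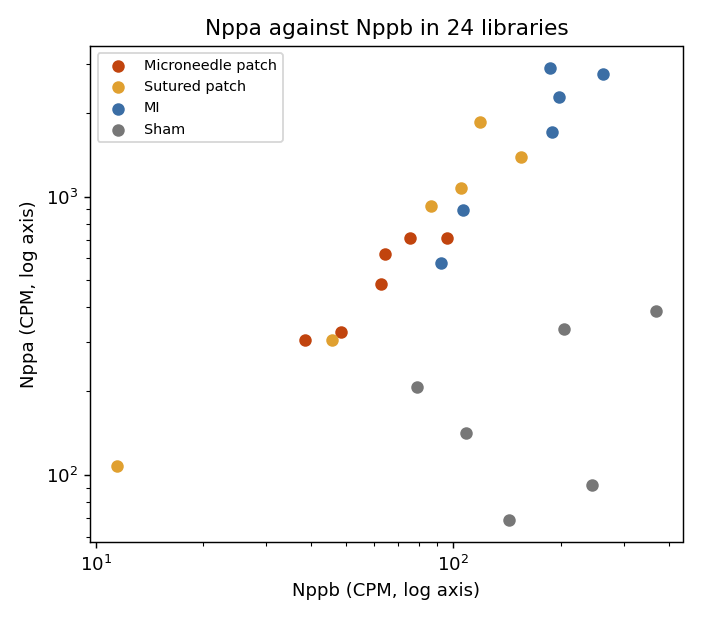
Nppa against Nppb in CPM on log axes, 1 point for each of the 24 libraries. The 18 libraries with an infarct form 1 diagonal band, from Sutured patch replicate 6 (11.5 CPM Nppb, 108 CPM Nppa) to MI replicates 1 and 4 (261 and 186 CPM Nppb, 2753 and 2885 CPM Nppa), in which the groups overlap, while the Sham points lie to the lower right, with similar Nppb and less Nppa than MI.

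Both genes were among the more variable of the tissue. The SD of log2 CPM between MI libraries was 0.95 for Nppa and 0.58 for Nppb, larger than in 99.2% and 96.0% of the 9914 genes, whose median SD was 0.16. With the sutured patch it was 1.56 for Nppa and 1.37 for Nppb, larger than in 99.0% and 98.4% of genes (median SD 0.28). With the microneedle patch it was 0.54 for Nppa and 0.46 for Nppb, larger than in 85.3% and 78.7% of genes (median SD 0.28). In Sham it was 0.996 for Nppa and 0.81 for Nppb, larger than in 87.5% and 79.4% of genes (median SD 0.51). The microneedle patch libraries were thus the closest to each other for both genes, by 2.32-fold between the lowest and the highest for Nppa and 2.49-fold for Nppb, against 17.1-fold and 13.5-fold with the sutured patch, 5.01-fold and 2.83-fold in MI and 5.59-fold and 4.64-fold in Sham. The low end of both sutured spans was replicate 6, at 108 CPM for Nppa and 11.5 CPM for Nppb. Next lowest was replicate 4, at 304 and 45.9 CPM, so that replicate 6 widened both sutured spans. Differences in spread between the groups were not tested.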

How the data were processed

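The authors deposited raw read counts as 1 table, with a row for each Ensembl gene ID and a column for each of 24 libraries, neither normalized nor pooled. Per the submitters' processing notes, HISAT2 and featureCounts were used with the genome build rn6; the sources used here give no versions, annotation release, strand setting or handling of multi-mapping reads, so that reads of overlapping, near-identical or antisense genes cannot be told apart. Columns were matched to samples by the code in each title, and 0 columns stayed unassigned.

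Counts were analysed with edgeR 4.0.16 in R 4.3.3: filterByExpr with a minimum count of 10 kept 14540 genes, Nppa and Nppb included, with 99.6% to 99.9% of the counts of each library; TMM factors ran from 0.920 to 1.09. All libraries entered a fit of 4 group means with robust quasi-likelihood F tests, adjusted by the Benjamini-Hochberg method over all genes and called at 0.05. This fit shares the estimate of the spread of a gene among all groups. Yet the median SD of log2 CPM differed between groups, from 0.16 in MI to 0.51 in Sham. Fits of the 2 groups alone use only the spread of those groups. Standard errors are the absolute log2 fold change over the square root of F. CPM use TMM-scaled library sizes, and log2 CPM for spread and likeness a prior count of 2. Ratios were tested by exact permutation in scipy 1.17.1. Libraries of the same group differed beyond sampling noise in every pair (lowest chi-square per degree of freedom 15.3 over 60 pairs). The test procedures were tested on simulated data.

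The 2 genes and the lists were chosen with earlier results of these data known. The genes named were Nppa and Nppb and, by a fixed rule, those with the highest correlation of deviations. As the IDs carry no symbols, these were limited to the 2 closest for each gene. Upstream sequences are from RefSeq, assembly GRCr8, matched by symbol for both genes. As 0 of the 32883 IDs occur in the RefSeq table, the lists of receptors, processing enzymes, cyclic GMP signalling, transcription factors, stress genes, mature muscle genes, secretion proteins, genome neighbours and cell type markers gave no result. Alternatives were RLE size factors, no filter, DESeq2 1.42.0, the 2 groups alone, a replicate block, counts thinned to 5443782 by binomial draws, Sham replicates 4 and 5 left out together, and each library left out. Depth sets the precision. Any technical difference behind the lower depth of every Sham library cannot be told apart from the difference between Sham and infarct groups. The labels give no batch.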

Additional observations from a re-analysis of the deposited data

How the results depend on the processing

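Of 84 values of Nppa and Nppb under 7 other settings, 79 kept their direction and their side of the threshold; for the other 5, the cause was not tested. Nppa with the microneedle patch against Sham lost its call without a filter on low counts (log2 fold change 1.37) and with the replicate block (1.21). Nppb with the sutured patch against Sham lost it with the 2 groups alone (-1.15, adjusted p = 0.0864) and without Sham replicates 4 and 5 together (-0.99, adjusted p = 0.0660). Without both of these libraries, Nppb in MI against Sham was 0.0023 rather than -0.15. Over the 24 leave-one-out fits, 267 of 288 values kept both. The ranges were -1.98 to -1.62 for Nppa and -1.55 to -1.27 for Nppb with the microneedle patch against MI, 1.18 to 1.66 for Nppa with the microneedle patch against Sham, -1.36 to -0.82 for Nppb with the sutured patch against Sham, and -0.31 to 0.14 for Nppb in MI against Sham.

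Whether the replicate numbers pair the libraries is not known, as the labels tie them to no litter or batch. Same-numbered libraries correlated above 0.1 in 2 to 5 of 6 pairs, depending on the comparison. In the same comparisons 2 to 6 of 12 libraries were closest to their own number. There were 6 for the sutured patch against MI, and 5 for MI against Sham and for the microneedle patch against MI. The number to be found without pairing was not estimated, so that this cannot decide whether the libraries are paired. With the replicate number as a block the log2 ratio differences against Sham stayed at 2.998 with the microneedle patch, 3.30 with the sutured patch and 3.28 in MI, with an adjusted p of 0.0625, the smallest that exact sign flips of 6 pairs and 3 tied tests among 6 can give. The block thus ended these 3 calls and that of Nppa with the microneedle patch against Sham, raised the count of genes called between the patches to 159, and changed no other call of the 2 genes or their ratio. Leaving out 1 library, the ratio difference ranged from -0.41 (without MI replicate 6, adjusted p = 0.0519) to -0.15 (without MI replicate 4) for the microneedle patch against MI, passing the test in 0 of 12 cases, from -0.41 to -0.17 between the microneedle and the sutured patch, and from -0.11 to 0.15 for the sutured patch against MI, where it was -0.024, -0.0026 and -0.11 without MI replicates 3, 5 and 6, and -0.0022 and -0.11 without sutured patch replicates 2 and 5.

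Counts of genes called moved more than those of the 2 genes. For the microneedle patch against MI, 2112 became 4593 with the 2 groups alone and 3804 without Sham replicates 4 and 5, with 1036 to 3482 when 1 library was left out. For the sutured patch against MI, 661 became 2141, 1715 and, with DESeq2, 1146, with 308 to 1408 when 1 library was left out. Between the patches, 46 became 431 with DESeq2, 499 without Sham replicates 4 and 5 and 28 without the filter, with 0 to 302 when 1 library was left out. The planned ratios of Nppa and Nppb to a cardiomyocyte list were not run, since no ID could be matched to its markers.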
